A study of Mus musculus with 4 samples.

Results

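S100 genes encode a family of small calcium-binding proteins, and 7 of them were followed here: S100a8, S100a9, S100a4, S100a6, S100a10, S100a11 and S100a13. They were taken by name as 7 of the 20640 gene columns of the deposited tables. S100 proteins carry paired EF-hand loops, mostly act as dimers, and change shape on binding calcium so that they can grip partner proteins such as annexins, myosin and cytoskeletal scaffolds. S100A8 and S100A9 form calprotectin, a heterodimer that fills the cytosol of neutrophils, binds zinc and calcium, and acts as an alarm signal through TLR4 and RAGE once released. S100A4, S100A6, S100A10, S100A11 and S100A13 are found in many tissues, and in the lung they are known from migrating leukocytes, endothelium and carcinoma cells.

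The study profiled single cells from lungs bearing HKP1 tumours, a transplantable mouse lung adenocarcinoma line without p53, by 10x Genomics 3′ RNA sequencing. Irradiated mice received 4 Gy on each of 3 days, day 10 to day 12 after injection, and mock mice 0 Gy. All mice were female C57BL/6, 8 weeks old at injection, and carried HKP1 from 150000 cells given into the tail vein, so that tumour was present at both doses. Harvest followed 24 to 48 h after the final fraction, and DAPI-negative lung cells were separated by flow sorting into CD45-positive leukocytes and CD45-negative cells. HKP1 is 1 cell line, lungs without tumour were not analysed here, and cells of 4 mice per dose went into 1 library per sort, so that mice cannot be told apart.

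The 4 libraries were CD45-positive 4 Gy, CD45-positive 0 Gy, CD45-negative 4 Gy and CD45-negative 0 Gy. They held 9608, 5415, 4313 and 5979 barcodes and 36423571, 24045901, 12448164 and 14885765 unique molecular identifiers (UMIs), which count captured RNA molecules, in that order. Any pair of libraries shared 3 to 17 cell barcodes. With 1 library per dose and sort no test of the dose was possible. Each comparison gives summed UMIs of a cell class scaled to the UMI total of that class (CPM) at 4 Gy and at 0 Gy, and their ratio with an exact conditional binomial 95% interval in brackets. All intervals cover counting error only, with no measure of how mice varied. Those of levels and ratios treat UMIs as independent draws, so they also leave out how the cells of a class varied. Ptprc, which encodes CD45, followed the sort, at 916 against 859.5 CPM in the CD45-positive and 8.99 against 12.9 CPM in the CD45-negative libraries. Cdkn1a, the p53 target that encodes p21, served as a check of the dose, and stood at 2349 CPM at 4 Gy against 352 CPM at 0 Gy in general capillary endothelium.

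Cells were assigned to classes by marker genes, with no S100 gene among them, and a class was counted where both libraries of its sort held at least 50 of its cells. That gave 11 CD45-positive classes and 2 CD45-negative ones. Tumour-gated cells (26 at 4 Gy and 77 at 0 Gy) and regulatory T cells (74 and 37) fell short of that number and are described outside the counts. A pair of gene and class was measured with at least 20 UMIs over both doses, and called higher or lower at 1.5-fold.

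The 7 genes lie on mouse chromosome 3 (GENCODE annotation of GRCm38) in 2 groups. S100a13 (90514435 to 90524581, plus strand), S100a4 (90603771 to 90606045, plus), S100a6 (90612882 to 90624181, plus), S100a8 (90668978 to 90670035, plus) and S100a9 (90692632 to 90695721, minus) lie within 181.3 kb. S100a11 (93520488 to 93526287, plus) and S100a10 (93555080 to 93564643, plus) lie within 44.2 kb, 2824.8 kb further along. Levels did not follow this order along the chromosome. S100a6 and S100a8 were both high in neutrophils, while S100a4, on the other side of S100a6, stood there at 18.0 CPM at 4 Gy and 14.99 CPM at 0 Gy.

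S100a8 and S100a9 were the genes with the steepest restriction to 1 cell class. In neutrophils S100a8 stood at 42639 CPM at 4 Gy (71138 UMIs in 751 cells) and 35227 CPM at 0 Gy (21151 UMIs in 261 cells). S100a9 stood there at 54234 CPM at 4 Gy (90482 UMIs) and 43428 CPM at 0 Gy (26075 UMIs). Together they made up 9.69% of all neutrophil UMIs at 4 Gy and 7.87% at 0 Gy. In the 10 other CD45-positive classes neither gene passed 54.1 CPM at 4 Gy or 46.3 CPM at 0 Gy, and tumour-gated cells held no UMI of either gene at either dose.

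Their proximal promoters, the 250 bases before the start annotated by RefSeq (GRCm38.p6), which for some genes lies inside the span given by GENCODE, are shown because these genes keep the same cell pattern although they lie on opposite strands. Capitals mark matches on either strand. The TATA box was searched as TATAAA, and the letters of C/EBP factors as TTGCNNAA. AP-1 was searched as TGANTCA and the GC box as GGGCGG. The S100a8 window is chr3:90668821-90669070 on the plus strand and the S100a9 window chr3:90695722-90695971 on the minus strand.
S100a8: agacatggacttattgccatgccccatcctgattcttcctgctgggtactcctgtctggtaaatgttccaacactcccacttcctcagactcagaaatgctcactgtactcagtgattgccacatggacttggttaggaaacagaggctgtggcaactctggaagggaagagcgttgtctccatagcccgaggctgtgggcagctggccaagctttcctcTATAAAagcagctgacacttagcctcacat
S100a9: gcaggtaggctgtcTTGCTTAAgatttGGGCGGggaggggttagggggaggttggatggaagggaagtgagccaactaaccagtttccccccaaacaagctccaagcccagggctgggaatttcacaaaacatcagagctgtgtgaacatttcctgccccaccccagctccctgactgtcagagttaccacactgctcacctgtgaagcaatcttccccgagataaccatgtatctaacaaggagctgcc
The S100a8 window holds TATAAA 30 to 25 bases before the start and none of the other letters searched. The S100a9 window holds a TTGCNNAA match 236 to 229 bases before the start and GGGCGG 223 to 218 bases before it, without TATAAA. Of 32817 mouse promoters of the same length, 12.4% held TATAAA, 9.57% TTGCNNAA, 6.75% TGANTCA and 32.7% GGGCGG, at any position on either strand. Many promoters thus hold each match, and how many hold it at the same place was not counted. A match is only a run of letters, and binding was not measured.

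In neutrophils both calprotectin genes were higher at 4 Gy by less than 1.5-fold. The ratio was 1.21 [1.19 to 1.23] for S100a8 and 1.25 [1.23 to 1.27] for S100a9. None of the 7 members was called in neutrophils, where 12% of 7416 measured genes were called higher and 11.3% lower. The members' median log2 ratio was 0.24 there, against -0.03 over all measured genes. The pair kept its proportion, with 1.27 S100a9 UMIs for each S100a8 UMI at 4 Gy and 1.23 at 0 Gy.

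The mean hid a wider spread between cells at 4 Gy. The median neutrophil gave 5.03% of its UMIs to S100a8 and S100a9 at 4 Gy and 5.88% at 0 Gy, so that the typical cell was not higher. The 90th percentile of cells was 22.3% at 4 Gy and 18.1% at 0 Gy, and the 10th percentile 0.0601% and 0.191%. Neutrophils with 16% or more made up 22.6% at 4 Gy (170 of 751, exact binomial interval 19.7 to 25.8%) and 14.2% at 0 Gy (37 of 261, 10.2 to 19.0%). Neutrophils with under 1% made up 27.4% at 4 Gy (206 cells, 24.3 to 30.8%) and 18.0% at 0 Gy (47 cells, 13.5 to 23.2%). Both tails were thus larger at 4 Gy and the middle smaller. After each cell was thinned to 1000 UMIs, which left out 49 and 7 shallower neutrophils, the median cell held 23 S100a8 UMIs at 4 Gy and 25.5 at 0 Gy, with upper quartiles of 67 and 54.75 UMIs. As a mean over cells, in which deep cells weigh no more than shallow ones, the S100a8 ratio was 1.10 and the S100a9 ratio 1.12.

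**Figure D1:**
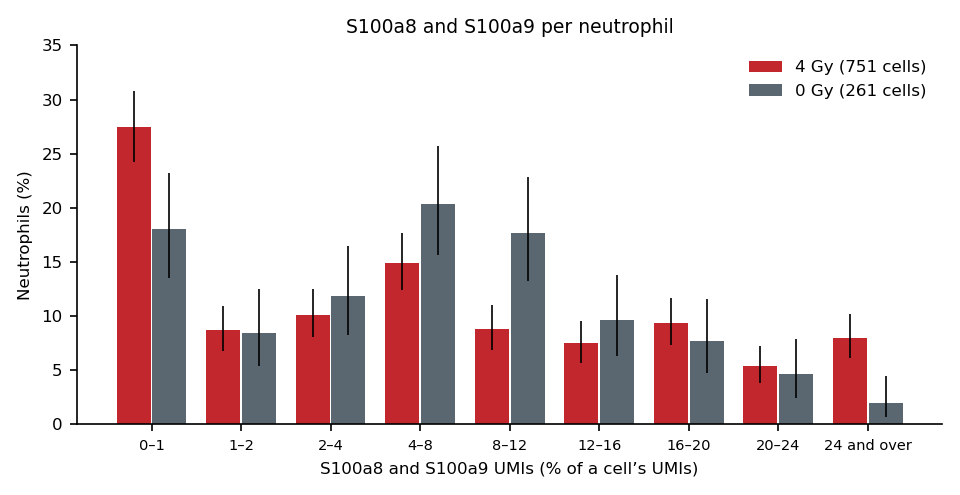
Share of gated neutrophils (vertical axis, %, with exact binomial 95% intervals) by the percentage of a cell's UMIs that came from S100a8 and S100a9 (horizontal axis), at 4 Gy (red, 751 cells) and 0 Gy (grey, 261 cells). The lowest bin and the bins from 16% up hold larger shares at 4 Gy, and the bins between 2% and 16% smaller ones.

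The 10 neutrophil gate markers were all detected at both doses and summed to 20142 CPM at 4 Gy and 16624 CPM at 0 Gy, so that their sum was higher too. The 6 measured genes of the immature granule list summed to 2419 and 2257 CPM, with members on both sides. Lcn2, which encodes lipocalin 2, stood at 1481 CPM at 4 Gy and 1091 CPM at 0 Gy, ratio 1.36 [1.25 to 1.48]. Ngp, the neutrophilic granule protein gene, was lower at 186 and 406 CPM, ratio 0.457 [0.385 to 0.543], and Ltf, the lactoferrin gene, at 67.7 and 127 CPM, ratio 0.535 [0.397 to 0.725]. Camp, the cathelicidin gene, stood at 182 and 248 CPM, ratio 0.732 [0.600 to 0.897]. Outside the neutrophil gate, 181 cells at 4 Gy and 97 at 0 Gy gave at least 1% of their UMIs to S100a8 and S100a9. Of these, 179 and 94 joined no class, and whether they were neutrophils or barcodes of mixed cells was not tested. Those cells showed a median of 8 of the 10 neutrophil markers at both doses, and held 29.7% and 38% of the library's S100a8 and S100a9 UMIs. Clusters built without S100 genes took 1026 and 364 cells into the neutrophil class, and the ratios there were 1.32 for S100a8 and 1.37 for S100a9.

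**Figure D2:**
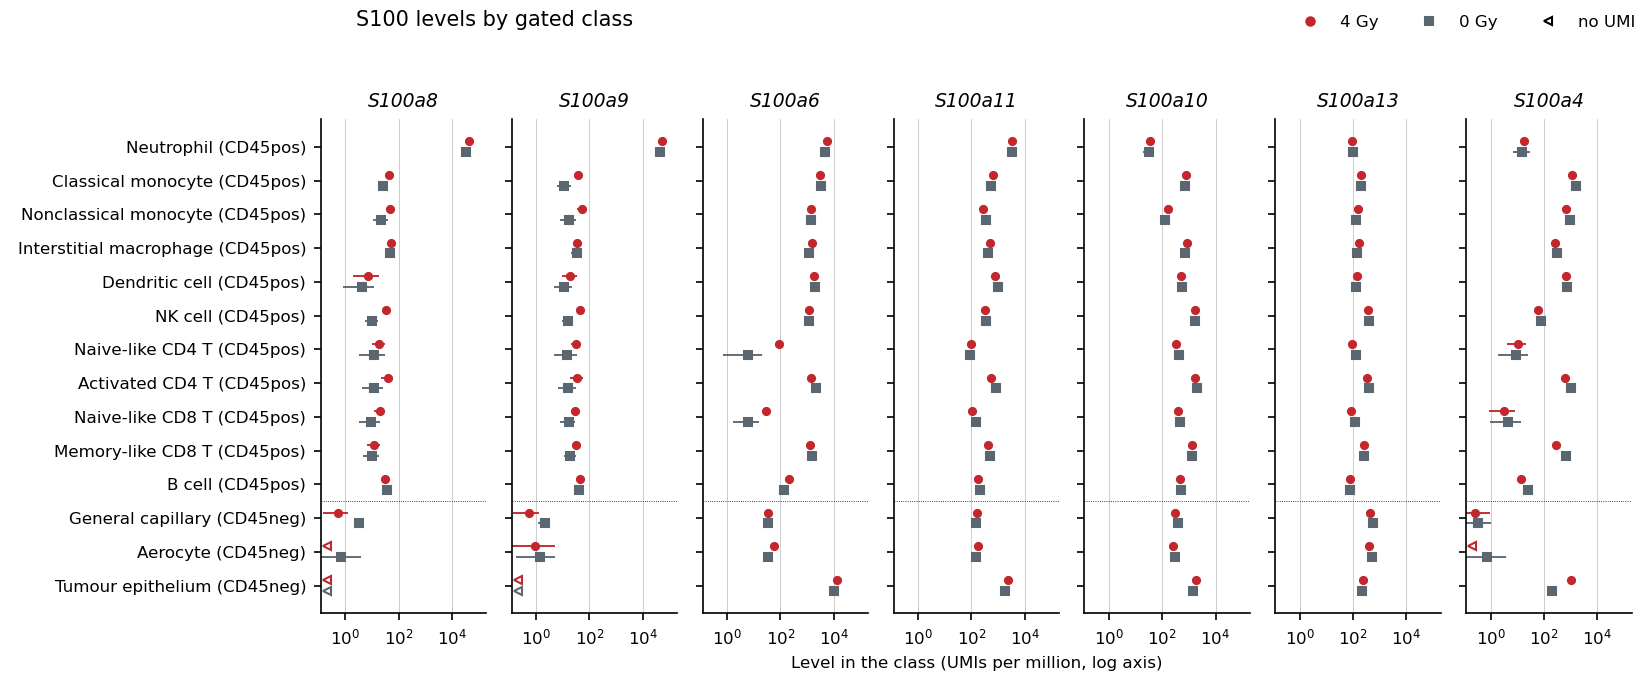
Level of each S100 gene in the 13 counted classes and in tumour-gated cells (horizontal axis, CPM of the class on a log axis, with exact Poisson 95% intervals), at 4 Gy (red circles) and 0 Gy (grey squares), with open triangles where no UMI was found. S100a8 and S100a9 stand between 35227 and 54234 CPM in neutrophils, S100a6 is high in tumour-gated cells, neutrophils and monocytes, and S100a13 varies least.

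Outside neutrophils the calprotectin genes made up most of the calls but rested on few UMIs. In the 10 other CD45-positive classes 17 of 20 pairs were measured, and 12 of these were called higher and 0 lower. The background over all CD45-positive classes was 11.8% of 88137 gene and class pairs called higher and 8.13% lower. In NK cells S100a8 stood at 35.3 CPM at 4 Gy (69 UMIs) and 10.2 CPM at 0 Gy (13 UMIs), ratio 3.47 [1.90 to 6.84]. In classical monocytes S100a9 stood at 37.9 CPM at 4 Gy (72 UMIs) and 11.54 CPM at 0 Gy (13 UMIs), ratio 3.28 [1.80 to 6.46]. In nonclassical monocytes S100a9 stood at 50.8 CPM at 4 Gy (31 UMIs) and 16.6 CPM at 0 Gy (9 UMIs), ratio 3.06 [1.42 to 7.30]. In 7 of the 12 called pairs the interval lay above 1.

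These levels were close to those of lymphocytes that do not make calprotectin. After thinning, 2.83% of NK cells had an S100a8 UMI at 4 Gy and 1.03% at 0 Gy, against 2.30% and 1.23% of B cells. For S100a9 the shares at 4 Gy and 0 Gy were 4.44% and 2.72% in classical monocytes, 5.04% and 1.54% in NK cells, 4.52% and 3.26% in naive-like CD4 T cells and 4.27% and 1.63% in B cells. At each dose the exact interval of every other counted CD45-positive class apart from neutrophils overlapped that of B cells, for both genes. Overlap of intervals from small classes does not show that the shares are equal. Median depth at 4 Gy and 0 Gy was 2124.5 and 2880 UMIs in NK cells, 5291.5 and 6280 in classical monocytes, 3077 and 3824 in naive-like CD4 T cells and 2235.5 and 2756 in B cells. Neither expression nor free RNA was tested as the source of these UMIs, and no expression is read from the shares.

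In B cells, the largest class, the share of cells and the level went opposite ways for S100a8, which stood at 30.9 CPM at 4 Gy and 37.8 CPM at 0 Gy, ratio 0.817 [0.689 to 0.970], so that no order is read there. S100a9 stood in B cells at 44.9 CPM at 4 Gy and 40.9 CPM at 0 Gy. Over the whole CD45-positive library the calprotectin genes took 0.742% of UMIs at 4 Gy and 0.371% at 0 Gy, and gated neutrophils were 8.34% and 5.04% of cells. Neutrophil gate markers summed to 97.1 CPM at 4 Gy and 85.3 CPM at 0 Gy in NK cells and to 254 and 177 CPM in classical monocytes, with Ly6g at 0 in both classes at both doses. The part of these values in the calls was not tested.

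Over all T cells S100a8 stood at 67.9 CPM at 4 Gy (529 UMIs) and 9.92 CPM at 0 Gy (52 UMIs). A single cell held 365 of the 529 UMIs at 4 Gy, and without it the level was 21.1 CPM. In CD45-negative general capillary cells both genes were called lower, each from a handful of molecules. They had 4 S100a8 UMIs in 3375 cells at 4 Gy against 29 in 4558 cells at 0 Gy, ratio 0.156 [0.0398 to 0.443], and 4 against 18 for S100a9, ratio 0.251 [0.0617 to 0.761]. Over all endothelium S100a8 and S100a9 were called lower and S100a4 higher, where 8.31% of all genes were called higher and 5.57% lower. There 1 cell held 25 of the 30 S100a8 UMIs at 0 Gy, and 1 cell 30 of the 33 S100a4 UMIs at 4 Gy. S100a9 turned to a ratio of 1.13 in general capillary cells once the cell richest in the gene was left out at each dose.

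**Figure D3:**
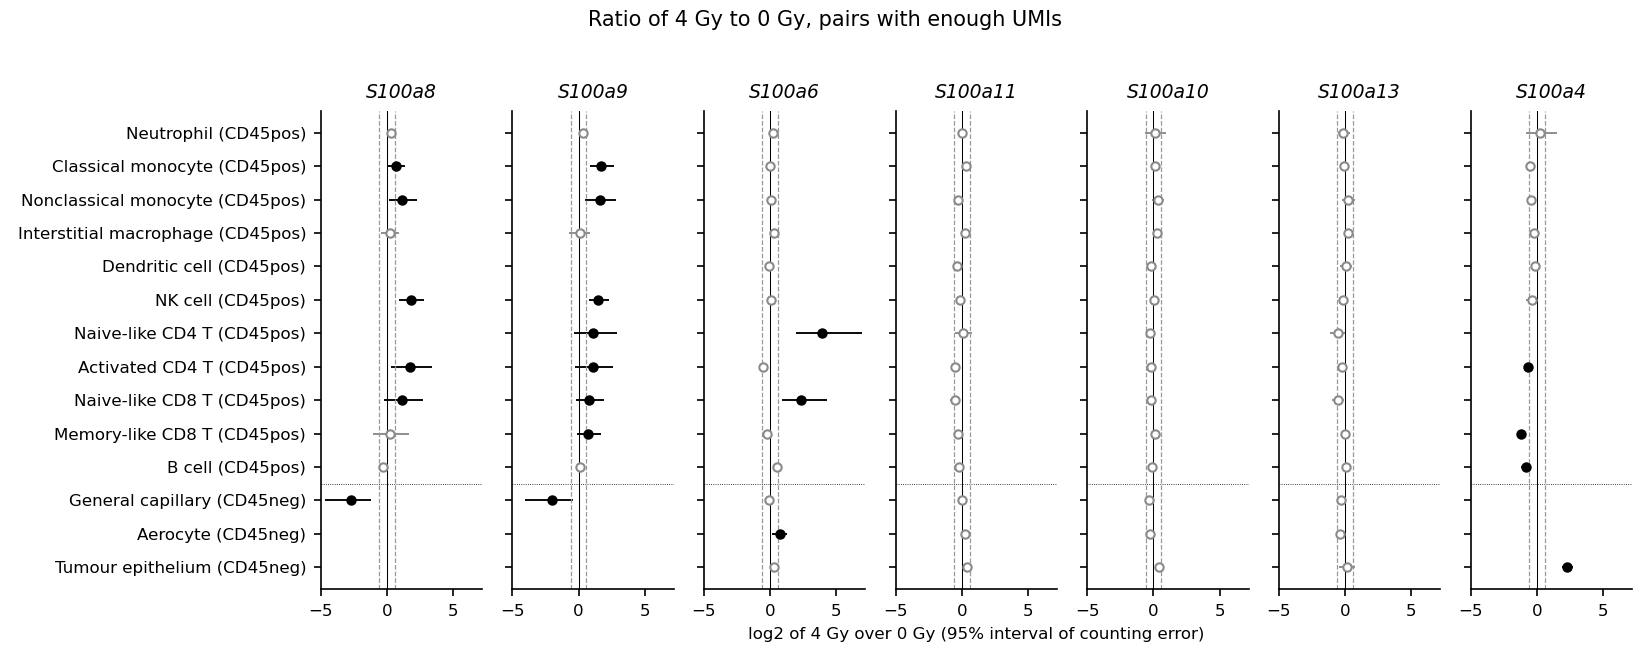
Ratio of 4 Gy to 0 Gy on the log2 scale (horizontal axis, with exact 95% intervals of counting error) for each measured pair of gene and class, tumour-gated cells included. Filled points are at least 1.5-fold (dashed lines); S100a10, S100a11 and S100a13 have none, and S100a4 is lower in 3 CD45-positive classes and higher in tumour-gated cells.

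S100a4, also called metastasin, binds non-muscle myosin and is known from motile leukocytes, fibroblasts and carcinoma cells. It was a gene of monocytes, dendritic cells and activated T cells. Classical monocytes had 1083 CPM at 4 Gy and 1524 CPM at 0 Gy, nonclassical monocytes 663 and 906 CPM, dendritic cells 640.3 and 709 CPM, and activated CD4 T cells 632 and 987 CPM. Naive-like T cells, B cells and neutrophils stayed at or under 18.0 CPM at 4 Gy and 24.5 CPM at 0 Gy. General capillary cells held 2 and 3 UMIs in all.

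In the CD45-positive sort S100a4 had a ratio under 1 in 8 of its 9 measured classes, and it was called lower in 3 of them. Memory-like CD8 T cells stood at 275 CPM at 4 Gy (318 UMIs in 93 of 257 cells) and 638 CPM at 0 Gy (570 UMIs in 80 of 157 cells), ratio 0.432 [0.375 to 0.496]. Activated CD4 T cells had a ratio of 0.640 [0.547 to 0.747], from 244 UMIs at 4 Gy and 503 at 0 Gy. Both T cell subsets also held fewer cells with the gene at equal depth, at 20% and 30.6% of memory-like CD8 T cells and 33.6% and 43.4% of activated CD4 T cells. Classical monocytes (0.711 [0.666 to 0.758]) and nonclassical monocytes (0.732 [0.641 to 0.837]) were lower by less than 1.5-fold. In regulatory T cells, with few cells, S100a4 stood at 654 CPM at 4 Gy and 576 CPM at 0 Gy.

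The third call, in B cells, rested on 54 of 3274 cells at 4 Gy and 56 of 2220 at 0 Gy, at 13.6 and 24.5 CPM, ratio 0.555 [0.437 to 0.703]. The 10 richest cells held 58.2% of those UMIs at 4 Gy and 73.4% at 0 Gy, and with classes taken from clusters the ratio was 1.34. Over all T cells S100a4 stood at 151 CPM at 4 Gy and 361 CPM at 0 Gy, ratio 0.419 [0.389 to 0.451]. The makeup of the T cells differed as well. Activated CD4 T cells were 5.24% of T cells at 4 Gy and 10.5% at 0 Gy, while naive-like CD8 T cells were 15.96% and 13%. How much of the difference over all T cells follows this makeup was not tested; the ratios within subsets stand above.

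S100a6, also called calcyclin, binds annexins and the ubiquitin-linked protein CACYBP and is known from proliferating and activated cells. S100a4, in the same chromosomal group, has the promoter letters TATAAA 31 to 26 bases before the start, while S100a6 has none of the 4 motifs in its window. Both windows, chr3:90603520-90603769 and chr3:90612644-90612893 on the plus strand, are shown because the levels of these genes are compared next.
S100a4: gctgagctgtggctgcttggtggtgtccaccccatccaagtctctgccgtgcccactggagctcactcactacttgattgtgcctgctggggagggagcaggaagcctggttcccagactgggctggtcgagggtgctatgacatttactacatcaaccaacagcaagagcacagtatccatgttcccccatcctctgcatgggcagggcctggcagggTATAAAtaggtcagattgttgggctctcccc
S100a6: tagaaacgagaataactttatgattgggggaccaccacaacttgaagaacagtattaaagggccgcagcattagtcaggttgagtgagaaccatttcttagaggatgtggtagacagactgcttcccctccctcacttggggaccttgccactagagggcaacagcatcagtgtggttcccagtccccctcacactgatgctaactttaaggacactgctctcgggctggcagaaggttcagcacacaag
Across the 28 points given by a class and a library with at least 50 cells, S100a4 and S100a6 had a Pearson r of 0.749 on log2(CPM + 10), as a description, since classes of one library share its depth and its background RNA. In neutrophils and NK cells they parted, since S100a6 was well above its level in resting lymphocytes there and S100a4 was low.

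S100a6 stood in tumour-gated cells at 13344 CPM at 4 Gy and 10724 CPM at 0 Gy, above every counted class. The 10 mesothelium-gated cells at 0 Gy stood at 11192 CPM. Among the counted classes it was highest in neutrophils at 5629 and 4752 CPM, followed by classical monocytes at 3194 and 3290 CPM. Dendritic cells, interstitial macrophages, activated CD4 and memory-like CD8 T cells, nonclassical monocytes and NK cells held between 1226 and 1857 CPM at 4 Gy and between 1173 and 2102 CPM at 0 Gy. These 6 classes lie close together, and the order among them differed between doses. Naive-like T cells held 2 and 4 UMIs at 0 Gy in the CD4 and CD8 subsets.

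In activated CD4 T cells S100a6 was lower together with S100a4, at 1448 CPM at 4 Gy and 2102 CPM at 0 Gy, ratio 0.689 [0.621 to 0.764], short of the 1.5-fold line. It passed that line as a mean over cells (0.618) and at equal depth (0.632). Cells with both genes made up 22.1% of thinned activated CD4 T cells at 4 Gy and 33.6% at 0 Gy, and cells with neither 34.5% and 23.0%. In memory-like CD8 T cells the ratio of S100a6 was 0.847 [0.786 to 0.911], and 16.1% and 22.3% of cells held both genes. Both ratios were under 1 there, and that of S100a4 was the lower.

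The naive-like subsets had the only S100a6 calls of the CD45-positive sort. Naive-like CD4 T cells had 60 UMIs at 4 Gy (86.5 CPM) and 2 at 0 Gy (5.87 CPM), ratio 14.7 [3.91 to 125]. A single cell held 40 of the 60 UMIs, and without the richest cell of each dose the levels were 29.6 and 2.97 CPM, from 20 UMIs and 1 UMI. Naive-like CD8 T cells had 37 UMIs at 4 Gy (30.04 CPM) and 4 at 0 Gy (5.94 CPM), ratio 5.06 [1.82 to 19.5], and 1.84 with classes from clusters. These levels stayed far under those of the activated and memory-like subsets. B cells stood at 203 CPM at 4 Gy and 139 CPM at 0 Gy, ratio 1.46 [1.35 to 1.57], with 5.59% and 5.63% of thinned cells positive, so that the share of positive cells was alike. The 10 richest B cells held 34.8% of the S100a6 UMIs at 4 Gy and 41.1% at 0 Gy.

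**Figure D4:**
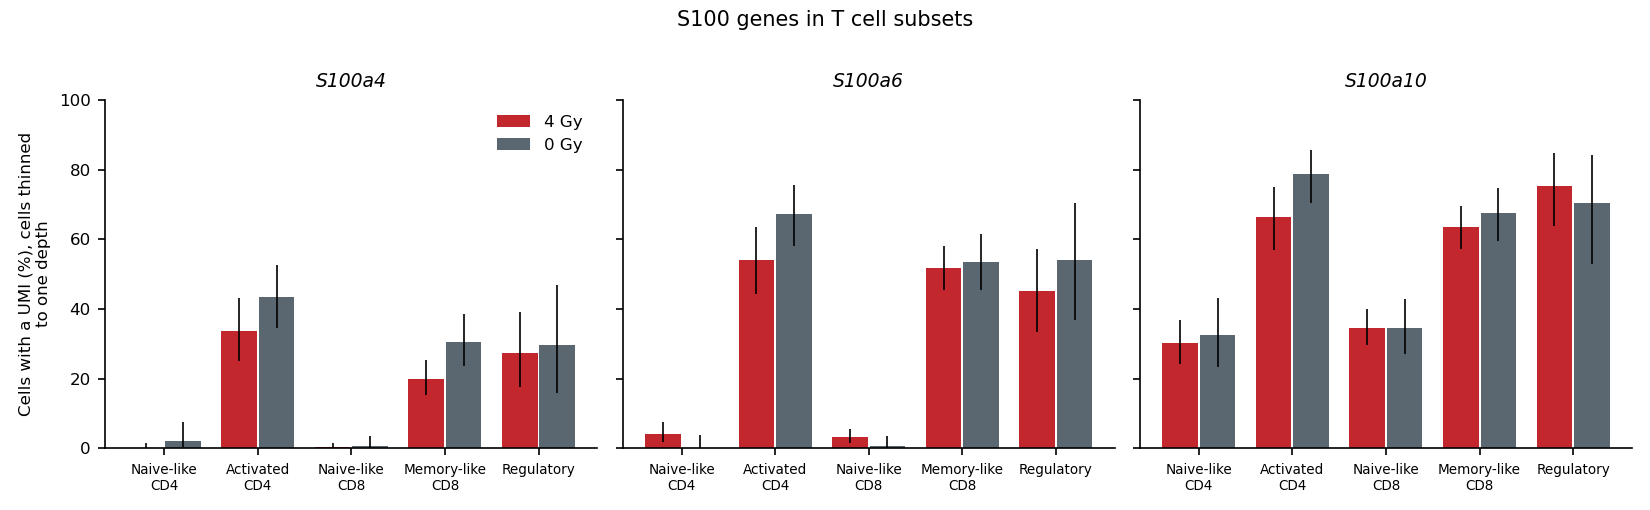
Share of cells with at least 1 UMI of S100a4, S100a6 and S100a10 (vertical axis, %, with exact binomial 95% intervals) in 5 T cell subsets, each cell thinned to 1000 UMIs, at 4 Gy (red) and 0 Gy (grey). The shares of activated CD4 T cells are lower at 4 Gy for all 3 genes, while for S100a4 and S100a6 the naive-like subsets are near 0 at both doses.

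By class, the members called among those measured, with the share of all measured genes called higher and lower in that class, were as follows. Classical monocytes had 2 of 7 higher (background 11.9% higher and 6.43% lower), nonclassical monocytes 2 of 7 higher (9.8% and 11.9%) and NK cells 2 of 7 higher (12.2% and 5.71%), S100a8 and S100a9 in each. Naive-like CD4 T cells had 2 of 5 higher (15.7% and 9.51%), S100a9 and S100a6. Naive-like CD8 T cells had 3 of 6 higher (14.5% and 6.89%), S100a8, S100a9 and S100a6. Activated CD4 T cells had 2 of 7 higher and 1 lower (11% and 12.1%). Memory-like CD8 T cells had 1 of 7 higher and 1 lower (10.2% and 8.74%), and B cells 1 of 7 lower (8.41% and 4.56%). Dendritic cells (15.8% and 8.08%) and interstitial macrophages (11.9% and 9.37%) had none, from 5 and 7 measured members. The median log2 ratio of all measured genes was 0.12 in dendritic cells and between -0.03 and 0.07 in the other 10 classes. Leaving out the calprotectin genes, 2 of 53 measured pairs in the CD45-positive sort were higher and 3 lower, both shares below the background.

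S100a10, also called p11, differs from the rest in that its EF-hands no longer bind calcium, and it forms a tetramer with annexin A2 at the plasma membrane. In the counted CD45-positive classes it was highest in activated CD4 T cells at 1720 CPM at 4 Gy and 1945 CPM at 0 Gy, NK cells at 1709 and 1666 CPM and memory-like CD8 T cells at 1358 and 1259 CPM. Neutrophils were the lowest class, at 34.8 and 31.6 CPM. It was thus scarce in the class where the calprotectin genes were abundant, with a Pearson r of -0.631 against S100a8 over the 28 points. The neutrophil points weigh heavily in this r, since S100a8 stood at 54.1 CPM at most elsewhere. For S100a10 no CD45-positive class was called, and the ratios ran between 0.822 and 1.27. Regulatory T cells had 2828 CPM at 4 Gy and 2087 CPM at 0 Gy, ratio 1.35 [1.19 to 1.54], above every counted class.

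S100a13, which takes part in the export of FGF1 and interleukin-1 alpha without a signal peptide, was the most even member. Endothelium held 87.0% of its UMIs in the CD45-negative library at 4 Gy and 86.4% at 0 Gy. Those libraries were mostly endothelium, at 92.1% and 90.3% of cells, with 9358381 of 11677446 and 10529269 of 13979539 UMIs. In CD45-positive classes its ratios ran between 0.681 and 1.19, with none called.

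S100a10 and S100a13 were both lower at 4 Gy in endothelium, by about the same measure and short of 1.5-fold. General capillary cells had 311 CPM of S100a10 at 4 Gy (2419 UMIs) and 400.2 CPM at 0 Gy (3518 UMIs), ratio 0.776 [0.737 to 0.818]. They had 423 CPM of S100a13 at 4 Gy (3294 UMIs) and 539 CPM at 0 Gy (4735 UMIs), ratio 0.785 [0.751 to 0.821]. Aerocytes, the capillary cells specialised for gas exchange, had ratios of 0.839 [0.720 to 0.977] for S100a10 and 0.765 [0.677 to 0.863] for S100a13. At equal depth 22.5% of general capillary cells at 4 Gy and 30.4% at 0 Gy held an S100a10 UMI, and 33.3% and 40.1% an S100a13 UMI. The general capillary ratios stayed within 0.716 to 0.797 for S100a10 and 0.761 to 0.797 for S100a13 under every alternative run.

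S100a11, also called calgizzarin, pairs with annexin A1 and is known from epithelia, and it showed no such difference in the capillary classes. It stood at 160 CPM at 4 Gy and 155 CPM at 0 Gy in general capillary cells and at 180 and 150 CPM in aerocytes. Of 6 measured members in general capillary cells, 0 were higher and 2 lower, S100a8 and S100a9, where 8.4% of all genes were called higher and 5.78% lower. The median log2 ratio of those 6 was -0.36, against 0.05 over all measured genes. In aerocytes 1 of 4 was higher, where 10.4% and 6.08% were called. That was S100a6, with 62 UMIs at 4 Gy (57.6 CPM) and 51 at 0 Gy (35.3 CPM), ratio 1.63 [1.11 to 2.41], and it turned to 0.842 when cells scored as doublets were kept. Over both CD45-negative classes 1 of 10 measured pairs was higher and 2 were lower, against a background of 9.22% and 5.9%.

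Among leukocytes S100a11 was highest in neutrophils, at 3351 CPM at 4 Gy and 3378 CPM at 0 Gy, and no class was called. Activated CD4 T cells stood at 567 and 826 CPM, ratio 0.686 [0.580 to 0.810], and dendritic cells at 749 and 966 CPM, ratio 0.776 [0.686 to 0.876]. Over all T cells S100a8 and S100a9 were called higher and S100a4, S100a6 and S100a11 lower, where 6.72% of all genes were called higher and 6.6% lower. The S100a11 values are uncertain, since the processed pseudogenes Gm12854 and Gm7665 match 294 and 293 of 297 aligned bases of its transcript and have columns of their own. Their UMIs together came in CD45-positive cells to 25.7% of those of S100a11 at 4 Gy and 21.2% at 0 Gy, and in CD45-negative cells to 21.6% and 22.3%.

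Tumour-gated cells rested on keratins: 6 of the 8 list markers were detected at 4 Gy and 7 at 0 Gy, summing to 6539 and 5680 CPM. Cldn4 was at 0 at both doses and Perp at 4 Gy, Epcam had 5 UMIs at 4 Gy and 9 at 0 Gy, and Ptprc had 0. Trp53, which HKP1 lacks, had 1 and 4 UMIs. The 26 cells at 4 Gy had a median of 4397 UMIs and the 77 cells at 0 Gy 2161 UMIs.

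S100a4 was the member that differed most there, at 987 CPM at 4 Gy (160 UMIs in 18 of 26 cells) and 199.9 CPM at 0 Gy (82 UMIs in 27 of 77 cells), ratio 4.94 [3.76 to 6.53]. It was called higher as 1 of 5 measured members, where 15.7% of 3989 measured genes were called higher and 19.8% lower. At equal depth 50% of 22 cells at 4 Gy (exact interval 28.2 to 71.8%) and 19.0% of 58 cells at 0 Gy (9.87 to 31.4%) held an S100a4 UMI. The size of the difference varied with the method, and not in 1 direction. As a mean over cells the ratio was 2.59, with classes from clusters 3.16, and thinned 6.59. The mean over cells at 0 Gy includes 1 shallow cell of 585 UMIs with 7 S100a4 UMIs, at 11966 CPM. Cells over 10000 UMIs, 5 at 4 Gy and 13 at 0 Gy, had 1041 and 113 CPM, and shallower cells 933 and 346 CPM. The CD45-positive sort also held a few tumour-gated cells, 12 at 4 Gy and 10 at 0 Gy, which had 592 CPM (15 UMIs) and 343 CPM (10 UMIs). CD45-negative cells that joined no class, 157 at 4 Gy and 267 at 0 Gy, held 132 and 277 S100a4 UMIs. That was 30.6% and 55.8% of the library's S100a4 UMIs, against 37.1% and 16.5% in the tumour gate. Over the whole CD45-negative library S100a4 stood at 36.9 CPM at 4 Gy and 35.5 CPM at 0 Gy. Whether tumour cells were among those without a class was not tested.

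The other 4 measured members were higher in tumour-gated cells by less than 1.5-fold. The ratio was 1.24 [1.18 to 1.31] for S100a6, 1.28 [1.13 to 1.45] for S100a11, 1.32 [1.14 to 1.52] for S100a10 and 1.10 [0.728 to 1.64] for S100a13. In shallower cells S100a6 stood at 13830 CPM at 4 Gy and 13248 CPM at 0 Gy, and S100a11 at 2637 and 2339 CPM. S100a10 stood there at 1517 CPM at 4 Gy and 1574 CPM at 0 Gy, the other way round from all cells, and S100a13 at 261 CPM (21 UMIs) and 229 CPM (35 UMIs). The members' median log2 ratio was 0.36, against -0.04 over all measured genes.

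**Figure D5:**
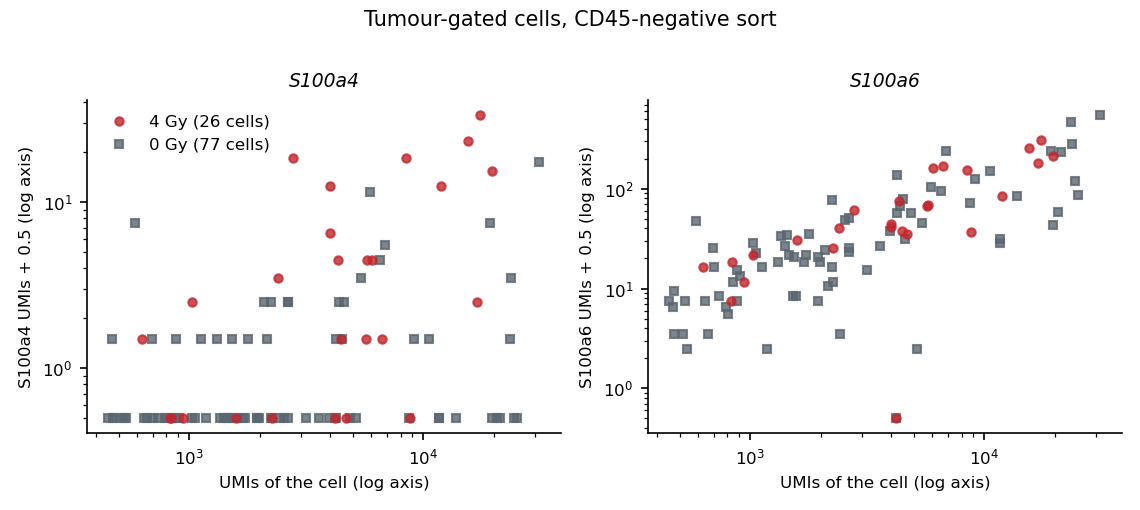
S100a4 UMIs (left) and S100a6 UMIs (right) of each tumour-gated cell of the CD45-negative sort, plus 0.5 (vertical log axes), against all UMIs of the cell (horizontal log axes), at 4 Gy (red circles, 26 cells) and 0 Gy (grey squares, 77 cells). S100a4 was found in 18 of 26 cells at 4 Gy and 27 of 77 at 0 Gy, and S100a6 in 25 of 26 and 76 of 77.

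Of 11 genes listed beside the members, 8 had columns, and 0 to 3 reached 20 UMIs per class. They were other S100 family genes and S100pbp, which is not itself an S100 gene. The counts that follow include S100pbp, which gave most of the higher calls. In counted CD45-positive classes 5 of 16 measured pairs were higher and 2 lower, where 11.8% and 8.13% of all pairs were called. In the CD45-negative ones 1 of 6 was higher and 0 lower, where 9.22% and 5.9% were called. In tumour-gated cells S100g, the vitamin D-dependent calbindin-D9k, had 2 UMIs at 4 Gy (12.3 CPM) and 53 at 0 Gy (129 CPM), ratio 0.0955 [0.0113 to 0.362], and S100a1, known from muscle calcium handling, stood at 111 and 185 CPM, ratio 0.599. S100pbp, which encodes a binding partner of S100P, was higher in NK cells at 26.6 CPM at 4 Gy and 13.3 CPM at 0 Gy, ratio 1.999, and in aerocytes at 26.0 and 12.5 CPM, ratio 2.09. S100pbp was also higher in activated CD4 T cells (15 and 10 UMIs) and interstitial macrophages (17 and 3 UMIs) and lower in nonclassical monocytes (7 and 17 UMIs). S100a1 was higher in neutrophils (25 and 5 UMIs) and B cells (54 and 24 UMIs) and lower in dendritic cells (13 and 30 UMIs). All of these calls rested on few molecules. S100a16 and S100a1 were not sparse in general capillary cells. S100a16 stood there at 527 CPM at 4 Gy (4101 UMIs) and 679 CPM at 0 Gy (5966 UMIs), ratio 0.776 [0.745 to 0.807], short of 1.5-fold as S100a10 and S100a13 were. In aerocytes it stood at 390.4 and 369.7 CPM, ratio 1.06 [0.927 to 1.20]. S100a1 stood in general capillary cells at 156 CPM at 4 Gy (1211 UMIs) and 176 CPM at 0 Gy (1550 UMIs), ratio 0.882 [0.817 to 0.951].

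Of 15 listed partners and receptors, 14 had columns, and 6 to 13 were measured in each counted class. Neutrophils had 0 of 12 higher and 1 lower, Il1a, the interleukin-1 alpha gene, at 126 CPM at 4 Gy and 248 CPM at 0 Gy, ratio 0.510 [0.411 to 0.633]. General capillary cells had 0 of 13 higher and 1 lower, Ager, which encodes the receptor RAGE, at 9.12 and 17.3 CPM, ratio 0.527 [0.392 to 0.703]. Activated CD4 T cells had 0 of 8 higher and 1 lower, Anxa1, at 20.7 and 54.9 CPM, ratio 0.377 [0.149 to 0.849]. In tumour-gated cells 3 of 9 were higher and 0 lower. These were Ahnak, a scaffold bound by S100A10 and annexin A2, at 518 and 239 CPM (ratio 2.17), Bsg, which encodes the membrane protein basigin, at 2030 and 1182 CPM (1.72), and Anxa1 at 450.4 and 297 CPM (1.51). The median log2 ratio of the listed genes was 0.09 in neutrophils, -0.09 in general capillary cells, -0.13 in activated CD4 T cells and 0.26 in tumour-gated cells, against -0.03, 0.05, -0.01 and -0.04 over all genes measured there.

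Over the counted CD45-positive classes 8 of 102 measured pairs of partner and class were higher (7.84%) and 4 lower (3.92%), both below the background of 11.8% and 8.13%. Over the CD45-negative ones 1 of 25 was higher and 1 lower, against 9.22% and 5.9%. Besides the pairs in neutrophils, general capillary cells and activated CD4 T cells, 9 were higher and 2 lower. Ahnak was higher in dendritic cells, at 529 CPM at 4 Gy and 324 CPM at 0 Gy, and in aerocytes, at 67.9 and 37.4 CPM. Interstitial macrophages had 3 higher, Anxa6 (77.4 and 47.9 CPM), Anxa11 (16 and 4 UMIs) and Il1a (43 and 11 UMIs). The other 4 were Tlr4, which encodes the receptor bound by S100A8, in NK cells (19 and 4 UMIs), Ager in B cells (32 and 10 UMIs), Anxa2 in naive-like CD4 T cells (17 and 3 UMIs) and Il1a in classical monocytes (23 and 7 UMIs). Lower were Il1a in B cells (8 and 31 UMIs) and Cacybp in nonclassical monocytes (33 and 45 UMIs). Naive-like and memory-like CD8 T cells had none.

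The genes whose levels ran most alike over the 28 points were taken by Pearson r on log2(CPM + 10). S100a8 and S100a9 were most like each other, at 0.992. Next came Hcar2 (0.974) and Retnlg (0.971) for S100a8 and Retnlg (0.977) and Mmp9 (0.970) for S100a9, where Retnlg and Mmp9 are neutrophil gate markers. The highest values were 0.874 for S100a4 with Ciao2a, 0.902 for S100a6 with Fam129a, 0.902 for S100a10 with Mrpl18, and 0.894 for S100a13 with Myl12a. S100a11 ran most like its pseudogenes, at 0.954 with Gm7665 and 0.935 with Gm12854. Between members, S100a6 and S100a11 reached 0.875.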

How the data were processed

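The values deposited by the authors are log2(CPM + 1) per cell and gene, from STAR alignment to mm10, Partek and Seurat, per the submitters' processing notes. Versions and filters are not given in the sources used here. Steps between low values gave back whole UMIs (tolerance 0.02) for 99.9993 to 99.9996% of nonzero values per library, and these UMIs were summed. Doublets were scored with Scrublet in scanpy 1.11.5. In the CD45-positive 4 Gy library the automatic threshold was used (608 cells removed). In the other 3 libraries it marked under 0.5% of cells, so cells were removed by an expected rate of 0.8% per 1000 cells. That left 24037 cells. A cell joined a class with at least 3 of its markers detected and no class of another lineage above 0.5 of its score. Classes of the same lineage had only to score lower. Tumour-gated cells with at least 2 markers of alveolar type II, club, ciliated or mesothelial cells were left out, as were those with alveolar type I markers. The alveolar type I exclusion and the leaving out of the richest cell were chosen after seeing the data.

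Levels carry exact Poisson intervals, ratios exact conditional binomial ones and shares Clopper-Pearson ones, all at 95%. For thinning, each cell was drawn down to 1000 UMIs and shallower cells were left out. The design foresaw UMIs worked out from log2 values, and no test was made with 1 library per group. The 7 members and the gene lists were chosen with earlier results of these data known. Named genes are the members, listed genes with at least 20 UMIs and a 1.5-fold difference, the 3 genes most alike to each member, and Cdkn1a and Ptprc as checks. Lcn2, Camp, S100a16 and S100a1 in general capillary cells were named after their values were seen. Promoters came from RefSeq for 6 of the 7 members, and gene positions from GENCODE. S100a10 had no promoter entry. Computation used Python 3.11.15, NumPy 2.4.6, SciPy 1.17.1, pandas 2.3.3, Biopython 1.88 and matplotlib 3.10.9. The ratio intervals were run on simulated class totals drawn from a Poisson model. The intervals assume that model, so the run cannot show how they behave where single cells hold many of the UMIs.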

Additional observations from a re-analysis of the deposited data

Results flagged for a closer look

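S100a8 went opposite ways in single classes of the sorts: its ratio of 4 Gy to 0 Gy was 3.47 in NK cells and 0.156 in CD45-negative general capillary cells. The latter rests on 4 and 29 UMIs, and 1 endothelial cell held 25 of the 30 endothelial S100a8 UMIs at 0 Gy. In B cells of the CD45-positive sort the S100a8 ratio was 0.817, but the share of cells with a UMI went the other way. No order is read there. S100a9 also went opposite ways, with 3.28 in classical monocytes and 0.251 in general capillary cells. Its general capillary ratio rests on 4 and 18 UMIs and turned direction without the richest cell of each dose. S100a4 had a ratio of 4.94 in tumour-gated cells and 0.432 in memory-like CD8 T cells. Each pair was singled out because the single library of one class lay above its 0 Gy library and that of the other class below it. The difference between the classes was not tested in any of the 3 cases, since each dose and sort had 1 library.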

How the results depend on the processing

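With 14 pairs of gene and class higher and 3 lower in the CD45-positive sort, and 1 higher and 2 lower in the CD45-negative sort, 10 alternatives were run. Thinning gave 6 and 8, and 2 and 1. A minimum of 50 UMIs gave 6 higher CD45-positive pairs and 0 lower CD45-negative ones, and no minimum gave 4 lower CD45-negative ones. A mean over cells gave 7 lower CD45-positive pairs, and classes from clusters 2 higher CD45-negative ones. With doublets kept, 0 CD45-negative pairs were higher. Without the richest cell of each library, an alternative chosen after seeing the data, 0 were higher and 1 lower. Turned ratios were S100a6 in aerocytes with doublets kept (0.842), S100a4 in B cells with clusters (1.34), and, without the richest cell, S100a9 in general capillary cells (1.13) and S100a4 in endothelium (0.845). For the last, 1 cell held 30 of 33 UMIs at 4 Gy. For the clusters and the doublets the cause was not tested. Clusters gave no value for naive-like and activated CD4 T cells. Depth limits S100a8 and S100a9 outside neutrophils, where 9 of 17 measured CD45-positive pairs reached 50 UMIs. No paired analysis was possible because each dose and sort had 1 library.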

Other observations

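A few cells under the counted number carried high S100 levels. Pericytes and smooth muscle cells (13 at 4 Gy and 24 at 0 Gy) held 724 CPM of S100a4 at 4 Gy (48 UMIs) and 130.1 CPM at 0 Gy (10 UMIs). Fibroblasts (31 and 34 cells) held 1855 CPM of S100a6 at 4 Gy and 2942 CPM at 0 Gy. Ciliated cells (23 and 17 cells) were among the richest in S100a11, at 2239 CPM at 4 Gy and 2301 CPM at 0 Gy. In the CD45-negative libraries 3 neutrophils at each dose held 47775 CPM of S100a8 at 4 Gy and 22483 CPM at 0 Gy.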
